A study of Mus musculus with 34 samples.

Results

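Osteopontin is a secreted, phosphorylated glycoprotein encoded by Spp1. The gene was followed here together with 4 genes for its receptors, Cd44, Itgav, Itgb1 and Itgb5, which were picked by symbol out of 25965 entries of a gene count table. Spp1 was chosen because it takes several percent of all counts in many libraries, so its abundance is a description without a test. The receptor genes were chosen as known partners of the protein. The data were 34 RNA sequencing libraries of cumulus cells (CCs), the somatic cells that surround the oocyte in the ovulatory follicle. They came from superovulated C57BL/6J female mice that entered the experiments at 8 weeks of age, and each library holds about 50 cells.

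In the hormone experiment, mice received intraperitoneal saline (group 16 C, n = 3) or leptin, the hormone of adipose tissue, at a daily total of 100 µg (group 16 L, n = 5), over 16 days. In the diet experiment, mice were kept on chow diet (CD) or on a diet rich in fat (HFD), with 11% and 58% of the energy from fat per the labels. The diets lasted 4 weeks (n = 5 on each diet) or 16 weeks (n = 6 on CD and n = 7 on HFD). A further group comprised mice labelled as low weight gainers (LWG, n = 3) after 16 weeks of HFD. Strain, sex and superovulation were common to all groups. The study's methods describe CCs collected per animal, whereas the labels describe cells from 1 cumulus-oocyte complex, so each library was treated as 1 mouse.

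Osteopontin is bound by cells through an arginine-glycine-aspartate (RGD) motif, which is recognised by integrins. Integrins are dimers of an alpha and a beta chain that link the extracellular matrix to the actin cytoskeleton. The alpha-v chain, encoded by Itgav, pairs with the beta-1 chain of Itgb1 or the beta-5 chain of Itgb5, and each of these dimers can bind osteopontin. CD44 is a transmembrane receptor best known for binding hyaluronan, the polymer that forms the matrix of the expanding cumulus, and it is also a receptor for osteopontin. Outside bone, osteopontin is known as a product of macrophages and of several epithelia.

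The letters that encode the RGD motif are shown because the alpha-v dimers of the integrin genes described here bind osteopontin through it. They lie in exon 7 of 8 of transcript Spp1-202, on the plus strand of GRCm38 at chr5:104439463-104439513, and were read from the GENCODE M21 transcript. The capitals mark the 3 codons for arginine, glycine and aspartate, which start at codon 145 of a reading frame of 296 codons with its stop.

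Spp1 coding stretch: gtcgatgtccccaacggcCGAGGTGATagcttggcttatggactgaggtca

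Of the 7 Spp1 coding transcripts of that annotation, 6 encode the motif, and 5 hold these 51 bases whole. Counts were summed per gene, so transcripts were not separated here.

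In the table, with coordinates on GRCm38, Spp1 spans 104435118 to 104441050 of chromosome 5 on the plus strand. Cd44 spans 102811141 to 102901665 of chromosome 2 on the minus strand, and Itgav spans 83724397 to 83806916 of the same chromosome on the plus strand. Itgb1 lies at 128685654 to 128733200 of chromosome 8 and Itgb5 at 33829665 to 33949153 of chromosome 16, both on the plus strand. Gm13684, a transcript on the strand opposite to Itgav and within it, had 614 counts over all libraries against 83017 for Itgav. The strand setting of the counting was not stated, so reads shared by this pair cannot be assigned.

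Total counts ranged from 1104611 to 13207018 per library. Summed granulosa markers (8 genes, among them Inha and Amhr2) were at 404 to 1542 RPM (reads scaled to a library total of 1000000 counts) in the 34 libraries. Summed oocyte markers were at or below 11.0 RPM in 33 libraries, and at 346 RPM in 4-week HFD replicate 5. The library 16 L replicate 18 stood apart. Its summed oviduct epithelium markers (8 genes, led by Ovgp1, the gene for oviductal glycoprotein) were at 31535 RPM, with 2411 RPM as the next highest value of any library. Its cumulus expansion markers (7 genes, among them Tnfaip6 and Ptx3) summed to 8.05 RPM, the lowest value of the 34 libraries. In addition, replicates 1 and 2 of 16-week CD differed from the other 4 libraries of their group. Their summed matrix ligands of alpha-v integrins other than osteopontin (10 genes, among them Fn1 and Thbs1) were at 2830 and 2886 RPM, against 548 to 721 RPM. These 2 libraries were also the closest of the 72 pairs within groups, with a chi-square per degree of freedom of 3.38. Between them and the other 4 it was 68.9 to 200. Replicates 3, 4 and 5 of 4-week HFD were close to each other, with a chi-square per degree of freedom of 3.70 to 9.22 between them. For the other pairs of the group it was 31.0 to 93.6. This measure grows with depth, and each of those pairs includes replicate 13 or 14, the deepest of the group at 9255287 and 12641896 counts. For the 5 genes, some fitted changes that rest on libraries that stood apart or were close to each other are also given with such libraries left out. The others are given with all libraries of the comparison in. Fitted changes of genes from the lists are given with all libraries of the comparison in.

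Spp1 had 6049741 of the 157409521 counts of all libraries together, or 3.84%, and the next most abundant gene, Actb, had 1.44%. Its share of a library ranged from 0.00948% to 11.0%, with a median of 3.66%. It was above 1% in 27 of 34 libraries and was the most abundant gene in 25 of them. The widest 95% exact (Clopper-Pearson) interval of any share spanned 0.0862 percentage points. These intervals cover counting error only, since the reads carry no molecular identifiers.

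In the saline controls (16 C), Spp1 took 5.51%, 2.10% and 4.71% of the counts in replicates 1, 2 and 3. In 16 L it took 0.00948%, 1.07%, 0.301%, 0.311% and 0.479% in replicates 18, 19, 20, 21 and 23. All 5 leptin libraries were below the lowest saline library, and the lowest of all was replicate 18, the library with the oviduct markers.

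After 4 weeks, the CD libraries had shares of 1.95%, 0.615%, 0.941%, 0.430% and 3.19% in replicates 1, 2, 7, 8 and 11. The 4-week HFD libraries had 3.69%, 3.63%, 3.60%, 2.77% and 2.34% in replicates 3, 4, 5, 13 and 14. The HFD libraries were close to each other, while the CD libraries spread from below 1% to a value inside the HFD range.

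After 16 weeks, the shares in CD were lowest at 1.90%, with a median of 5.69% and a highest value of 8.56% (n = 6). The 2 low values, 1.90% and 2.20%, belonged to replicates 1 and 2, the libraries with high matrix ligand counts, and the other 4 ranged from 4.80% to 8.56%. In 16-week HFD the lowest share was 4.31%, the median 7.61% and the highest 11.0% (n = 7), which was replicate 6. The low weight gainers had 5.60%, 5.56% and 5.60% in replicates 21, 22 and 23.

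**Figure D1:**
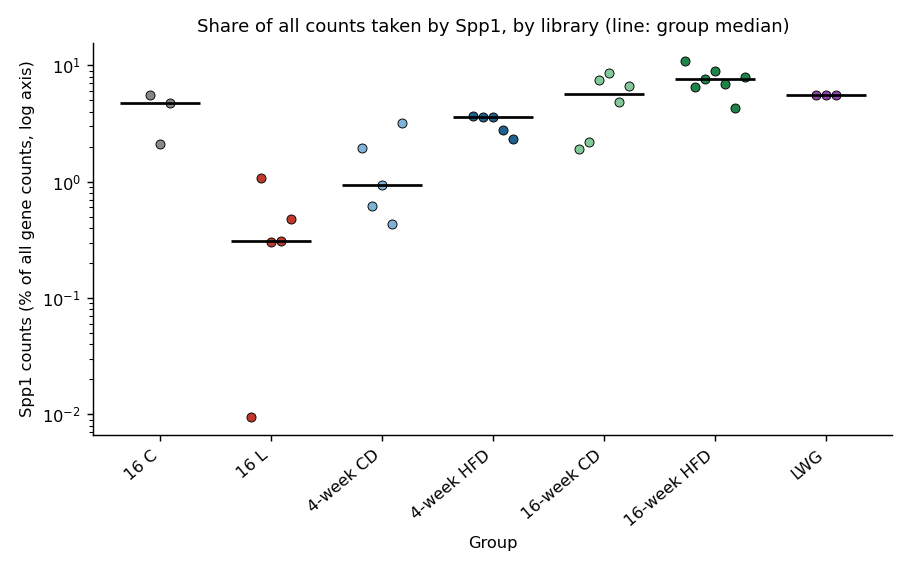
Share of all gene counts taken by Spp1 in each of the 34 libraries (y axis, percent, log scale) by group (x axis). Each point is 1 library and each line the group median. The 5 points of 16 L lie below the 3 points of 16 C, and the lowest point of all, at 0.00948%, is 16 L replicate 18.

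Ordered by median, the groups ran from 16 L (0.311%) over 4-week CD (0.941%), 4-week HFD (3.60%), 16 C (4.71%), LWG (5.60%) and 16-week CD (5.69%) to 16-week HFD (7.61%). The ranges of neighbouring groups overlapped, except for 16 C and LWG. The means were 0.433% ± 0.392 (SD, n = 5), 1.43% ± 1.15 (SD, n = 5), 3.21% ± 0.617 (SD, n = 5), 4.11% ± 1.79 (SD, n = 3), 5.59% ± 0.0228 (SD, n = 3), 5.26% ± 2.78 (SD, n = 6) and 7.60% ± 2.08 (SD, n = 7) in that order. The injection, 4-week and 16-week experiments differ in more than duration, so this order is a description.

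The spread of Spp1 between mice differed from group to group. The coefficient of variation was 90.4% in 16 L, 80.6% in 4-week CD, 52.9% in 16-week CD, 43.5% in 16 C, 27.3% in 16-week HFD and 19.2% in 4-week HFD. In the 3 low weight gainers it was 0.408%, and only 3 of the 8147 genes with a mean of at least 10 RPM varied less in that group. The receptor genes varied by 10.0% (Itgb1), 14.3% (Cd44), 16.1% (Itgav) and 30.4% (Itgb5) in the same 3 libraries, where the median gene varied by 19.4%.

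The other members of the family of small integrin-binding phosphoglycoproteins, Ibsp, Dmp1, Dspp and Mepe, reached together at most 1.05 RPM in a library and had too few counts to be tested in any comparison.

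Levels of different genes were compared per kilobase of exon sequence (RPM per kb, with GENCODE M21 lengths). Among the receptors, Itgb1 was the most abundant in 31 of 34 libraries and Itgav in the other 3, and Cd44 was the least abundant in 27. Over all libraries, the median RPM per kb was 126 for Itgb1, 42.2 for Itgav, 22.7 for Itgb5 and 10.2 for Cd44. That of Spp1 was 22210. Set against the 4 receptor genes together on this scale, Spp1 was between 0.599 times their sum, in 16 L replicate 18, and 386 times, in 16-week HFD replicate 6. The medians of this ratio were 9.07 in 16 L, 25.4 in 4-week CD, 77.3 in 4-week HFD, 172 in 16 C, 185 in 16-week CD, 197 in LWG and 247 in 16-week HFD.

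Cd44 was the member with the lowest counts per length, between 32 and 865 counts in a library. Its mean level was 48.9 ± 7.69 RPM (SD, n = 3) in 16 C, 59.3 ± 34.5 RPM (SD, n = 5) in 16 L, 49.3 ± 24.7 RPM (SD, n = 5) in 4-week CD and 68.4 ± 19.6 RPM (SD, n = 5) in 4-week HFD. It was 63.5 ± 32.2 RPM (SD, n = 6) in 16-week CD, 108 ± 25.6 RPM (SD, n = 7) in 16-week HFD and 80.9 ± 11.6 RPM (SD, n = 3) in LWG. By median the order was 16 C, 4-week CD, 16 L, 16-week CD, 4-week HFD, LWG and 16-week HFD, and every pair of neighbours overlapped.

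Itgav, the shared alpha chain, had its highest means in 16 L, at 802 ± 295 RPM (SD, n = 5), in 16 C, at 719 ± 262 RPM (SD, n = 3), and in 4-week CD, at 714 ± 371 RPM (SD, n = 5). Its means were lower in 16-week HFD, at 438 ± 136 RPM (SD, n = 7), in 4-week HFD, at 408 ± 179 RPM (SD, n = 5), and in 16-week CD, at 388 ± 213 RPM (SD, n = 6), and lowest in LWG, at 264 ± 42.4 RPM (SD, n = 3). Neighbours in this order overlapped.

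Itgb1, the beta chain with the widest choice of alpha partners, was at 294 ± 49.1 RPM (SD, n = 3) in 16 C and at 530 ± 398 RPM (SD, n = 5) in 16 L. It was at 552 ± 122 RPM (SD, n = 5) in 4-week CD and at 911 ± 194 RPM (SD, n = 5) in 4-week HFD. In the 16-week groups it was at 548 ± 157 RPM (SD, n = 6) in CD, 439 ± 103 RPM (SD, n = 7) in HFD and 475 ± 47.6 RPM (SD, n = 3) in LWG. Among neighbours ordered by median, 4-week CD and 4-week HFD, the highest pair, were the ones whose ranges did not overlap.

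Itgb5, which pairs with the alpha-v chain alone, varied 21.3-fold between libraries, more than the other receptor genes (7.03-fold for Cd44, 8.09-fold for Itgb1 and 8.73-fold for Itgav). Its mean was 27.1 ± 8.47 RPM (SD, n = 3) in 16 C and 194 ± 120 RPM (SD, n = 5) in 16 L. It was 147 ± 44.2 RPM (SD, n = 5) in 4-week CD, 156 ± 63.7 RPM (SD, n = 5) in 4-week HFD, 95.6 ± 52.5 RPM (SD, n = 6) in 16-week CD, 40.4 ± 11.9 RPM (SD, n = 7) in 16-week HFD and 89.4 ± 27.2 RPM (SD, n = 3) in LWG.

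**Figure D2:**
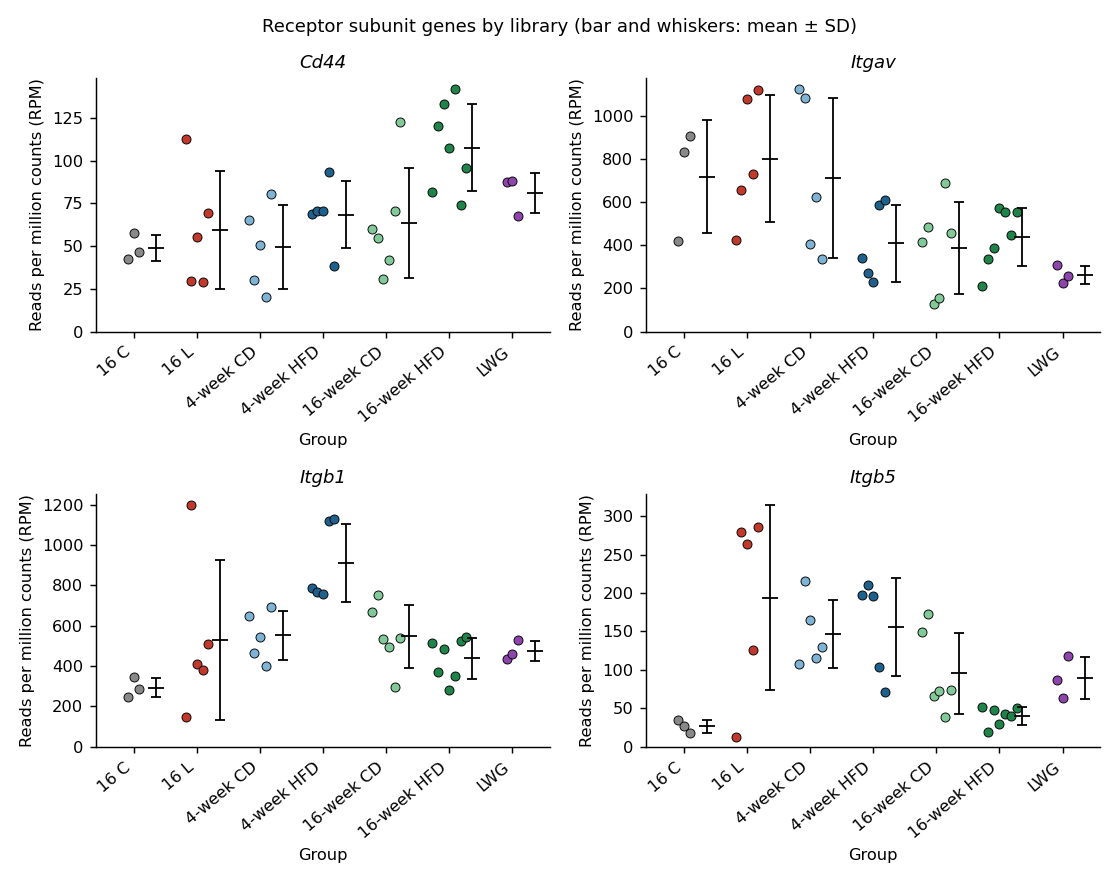
RPM of Cd44, Itgav, Itgb1 and Itgb5 (y axes, linear from 0) in each library by group (x axes). Points are libraries and the bars with whiskers are means ± SD. For Itgb5, 4 of the 5 points of 16 L lie above 100 RPM while the 3 points of 16 C lie between 18.3 and 35.2 RPM. For Itgb1, the 5 points of 4-week HFD lie above the 5 points of 4-week CD.

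The balance of the alpha-v and beta-5 genes was followed within each library as the ratio of Itgb5 to Itgav, both in RPM per kb. The median ratio was 0.101 in 16 C, 0.267 in 16-week HFD, 0.601 in 4-week CD, 0.741 in 16 L, 0.852 in LWG, 1.08 in 16-week CD and 1.75 in 4-week HFD. Within 4-week HFD, replicates 3, 4 and 5 had ratios of 1.75, 2.33 and 2.57, the last being the highest of all libraries, and replicates 13 and 14 had 0.536 and 0.351. The 3 LWG ratios, from 0.849 to 1.39, lay above the 7 ratios of 16-week HFD, from 0.157 to 0.736. No share over other gene pairs was computed for such ratios. Among single genes, 12.9% of those tested had LWG libraries above all 16-week HFD libraries. The ratio restates the levels of its 2 genes and is not a separate result.

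**Figure D3:**
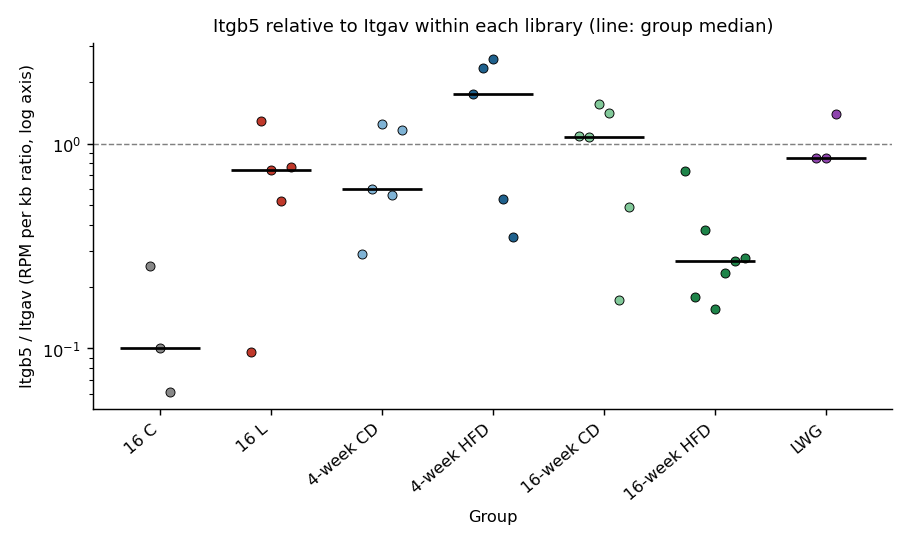
Ratio of Itgb5 to Itgav within each library, both in RPM per kb of exon (y axis, log scale), by group (x axis). Points are libraries, lines are group medians and the dashed line marks equal levels. The saline controls are lowest, with a median of 0.101. The LWG points lie above all points of 16-week HFD, for which no share over other gene pairs was computed.

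Group differences were tested gene by gene with edgeR's quasi-likelihood test over all genes that passed a filter on low counts, with Benjamini-Hochberg adjusted p-values called under 0.05. Each difference is a log2 fold change with its standard error (SE). All 5 genes passed the filter in each comparison. The genes were chosen with earlier results of these data known, so these tests are not independent of the choice. In these bulk libraries, fewer cells of a type and less RNA per cell cannot be told apart.

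The comparison of 16 L with 16 C asks what excess leptin without a change of diet does in CCs. Spp1 was called lower, and the other 4 genes were not called. For Spp1, the log2 fold change was -4.10 (SE 1.06, adjusted p = 0.0449, edgeR), a 17.1-fold lower fitted level. All genes tested had a median log2 fold change of 0.27, and relative to this Spp1 changed by -4.37. In this comparison 8.56% of all genes tested were called in either direction, and 4.50% were called lower. Spp1 was below every saline library in 5 of 5 leptin libraries, whereas 4.51% of genes tested had leptin libraries below all saline libraries. The call was lost when any of the 3 saline libraries or 16 L replicate 20, 21 or 23 was left out (adjusted p from 0.0939 to 0.165, edgeR). Those fits called 0.235% to 1.28% of genes tested. It held without 16 L replicate 19, in a fit that called 14.4% of genes tested. The call also held without 16 L replicate 18, where the log2 fold change was -3.86 (SE 0.557, adjusted p = 0.000679, edgeR), in a fit that called 41.8%.

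In 16 L the oviduct epithelium markers summed to 31535, 157, 1850, 2411 and 882 RPM in replicates 18, 19, 20, 21 and 23, against 128 to 162 RPM in 16 C. Red blood cell markers (3 genes) summed to 9805, 3.74, 44.7, 2549 and 37.5 RPM in the same order, against 1.06 to 19.3 RPM in 16 C. Theca and stroma markers (8 genes) summed to 1600, 4.22, 13.6, 74.2 and 14.7 RPM, against 0.559 to 2.42 RPM in 16 C. Each of these lists was lowest in replicate 19, the leptin library with the highest Spp1 share. The most abundant gene was Gm10800 in replicates 20 and 21 and Lars2 in replicate 23, at 5.15%, 0.974% and 0.868% of the counts. The macrophage and leukocyte markers (12 genes) were all detected in the 5 leptin libraries and summed to 114 to 2032 RPM, against 85.1 to 522 RPM in 16 C. They were highest in replicates 20 and 23, with 1808 and 2032 RPM, where Spp1 took 0.301% and 0.479%. The cumulus expansion markers summed to 8.05 to 886 RPM in 16 L and 905 to 1437 RPM in 16 C, without overlap. Among single genes, 4.51% of those tested had leptin libraries below all saline libraries. Of these 7 markers, Has2 was at 0 in 2 leptin libraries. None of the 5 that passed the filter was called, with log2 fold changes from -2.92 for Tnfaip6 to 0.10 for Ptgs2. The 6 luteinization markers summed to 439 RPM in replicate 18 and to 7051 to 10113 RPM in the other 4 leptin libraries, against 4047 to 4545 RPM in 16 C. Of these 6 genes 1 was called, Star, for the protein that carries cholesterol into mitochondria, which fell by 1.58 on the log2 scale (adjusted p = 0.0394, edgeR). The part of these markers in the Spp1 result was not tested.

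**Figure D4:**
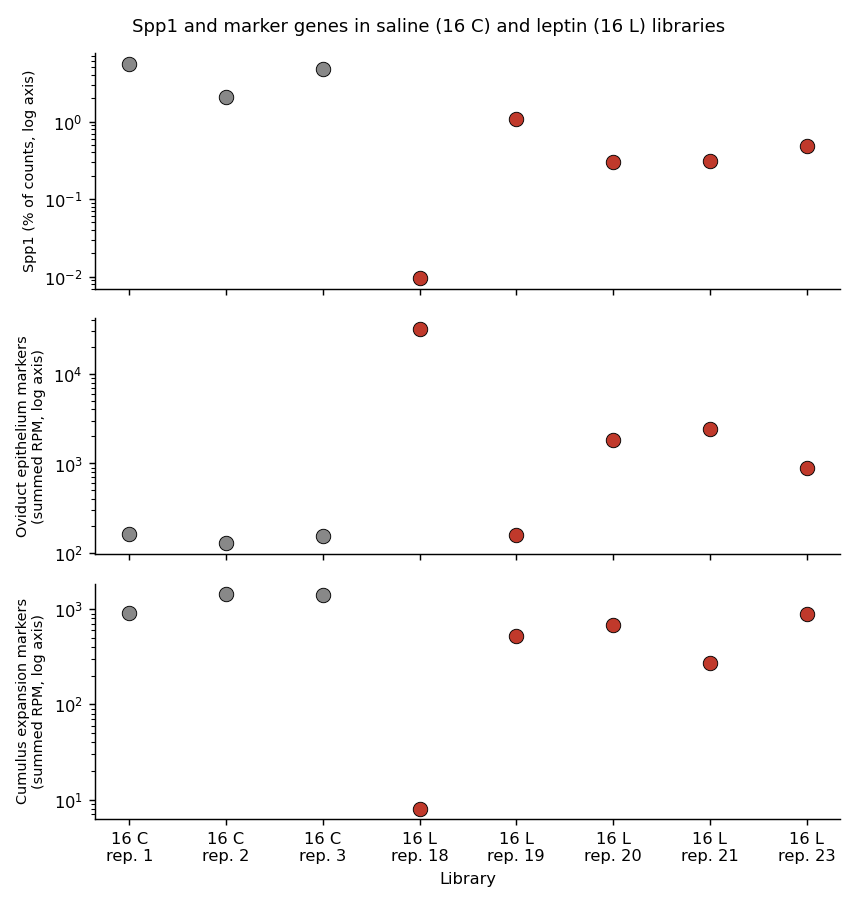
Spp1 share of counts (top, percent), summed oviduct epithelium markers (middle, RPM) and summed cumulus expansion markers (bottom, RPM), all on log y axes, in the 3 saline (grey) and 5 leptin (red) libraries on the x axis. Replicate 18 has the lowest Spp1 share and cumulus expansion sum and the highest oviduct sum, and replicate 19 combines an oviduct sum of 157 RPM with an Spp1 share of 1.07%.

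Itgb5 was at 35.2, 27.7 and 18.3 RPM in 16 C replicates 1, 2 and 3. It was at 13.4, 279, 264, 126 and 286 RPM in 16 L replicates 18, 19, 20, 21 and 23. All leptin libraries except replicate 18 were above the controls. Its log2 fold change of 1.94 (SE 0.745) did not pass the test (adjusted p = 0.112, edgeR). Without replicate 18 it was 2.16 (SE 0.369, adjusted p = 0.00168, edgeR), in a fit that called 41.8% of genes tested.

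Cd44 was at 42.5, 57.4 and 46.7 RPM in 16 C and at 113, 29.8, 55.4, 29.0 and 69.6 RPM in 16 L, with replicate 18 the highest. Its log2 fold change was -0.40 (SE 0.576, adjusted p = 0.660, edgeR). Without replicate 18 it was -1.12 (SE 0.357, adjusted p = 0.0306, edgeR), in the fit that called 41.8% of genes tested. Itgav had a log2 fold change of -0.71 (SE 0.436, adjusted p = 0.280, edgeR) and Itgb1 one of -0.02 (SE 0.557, adjusted p = 0.986, edgeR). In RPM, Itgb1 was at most at 346 in 16 C and at 148, 1200, 408, 381 and 511 in 16 L, above every control in 4 of 5 libraries, and the sign of its fitted change turned in 5 of 8 fits that leave out a library. With libraries scaled by total counts alone the median of all genes rose to 1.08, Cd44, Itgav and Itgb1 turned positive (0.30, 0.17 and 0.86, none called), Spp1 stayed lower at -3.24 and Itgb5 was called at 2.85, in a fit that called 34.4% of genes tested.

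After 4 weeks of HFD, which models the early phase of obesity, the 5 genes were not called by edgeR, with 2 of them, Spp1 and Itgb1, at an unadjusted p under 0.05. Of all genes tested, 24.3% were under that unadjusted p, and edgeR called 4.26%. DESeq2 called the same 2 genes and 6.88% of all genes with a count in these libraries. Itgb1 was at 650, 467, 544, 403 and 695 RPM in CD replicates 1, 2, 7, 8 and 11, and at 785, 769, 756, 1119 and 1127 RPM in HFD replicates 3, 4, 5, 13 and 14. All 5 HFD libraries were above all CD libraries, a pattern that 1.93% of genes tested showed in this direction. The 3 close libraries, replicates 3, 4 and 5, were below replicates 13 and 14. The log2 fold change of Itgb1 was 0.83 (SE 0.267, adjusted p = 0.0813, edgeR), and 1.04 (SE 0.340, adjusted p = 0.127, edgeR) with replicates 4 and 5 left out.

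Spp1 had a log2 fold change of 1.26 (SE 0.475, adjusted p = 0.124, edgeR) in the 4-week comparison. The CD library with the highest share, replicate 11 at 3.19%, lay inside the HFD range, and without it Spp1 was called at 1.75 (SE 0.453, adjusted p = 0.0212, edgeR), as was Itgb1 at 0.92 (SE 0.284, adjusted p = 0.0439, edgeR), in a fit that called 14.4% of genes tested. Replicate 11 also had the highest macrophage marker sum of the CD libraries, 633 RPM, with 92.4 to 256 RPM in the other 4, and the part of these markers was not tested. The remaining receptors had log2 fold changes of 0.54 for Cd44 (adjusted p = 0.330), -0.72 for Itgav (adjusted p = 0.291) and 0.18 for Itgb5 (adjusted p = 0.737), all from edgeR. With HFD replicates 4 and 5 left out, Spp1 was at 1.18 (adjusted p = 0.280, edgeR) and Itgb5 turned to -0.07, and 1 gene of 12444 was called.

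After 16 weeks of HFD, which models established obesity, edgeR called none of the 5 genes. Cd44 and Itgb5 were at an unadjusted p under 0.05, and DESeq2 called these 2 genes. In this comparison edgeR called 3 of 10861 genes, or 0.0276%, 25.3% of genes were at an unadjusted p under 0.05, and DESeq2 called 1130 genes. Cd44 had a lowest, median and highest level of 30.9, 57.5 and 123 RPM in CD and of 73.9, 107 and 142 RPM in HFD. The groups overlapped through CD replicate 13, the highest CD library. The log2 fold change of Cd44 was 1.05 (SE 0.326, adjusted p = 0.0780, edgeR).

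Itgb5 had a lowest, median and highest level of 39.3, 73.3 and 172 RPM in CD and of 19.8, 42.8 and 51.8 RPM in HFD. Of the 6 CD libraries, 5 were above all HFD libraries and replicate 9 was inside their range. The log2 fold change was -0.83 (SE 0.243, adjusted p = 0.0687, edgeR). Without CD replicate 9 both genes were called, Itgb5 at -0.95 (adjusted p = 0.0165, edgeR) and Cd44 at 1.18 (adjusted p = 0.0245, edgeR), in a fit that called 20.5% of genes. Without CD replicates 1 and 2, which had the highest Itgb5 levels, neither gene was called. The log2 fold change of Itgb5 was then -0.46 (adjusted p = 0.518, edgeR). Without CD replicate 13 Cd44 was called at 1.39, in a fit that called 4.29% of genes. Over the 13 fits that leave out a library, Cd44 was called in 2 and Itgb5 in 1. Across these fits Cd44 was lowest at 0.90, without CD replicate 5, and its adjusted p reached 0.216 (edgeR).

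Spp1 was 0.77 higher on the log2 scale after 16 weeks of HFD (SE 0.496, adjusted p = 0.317, edgeR), which did not pass the test. Without CD replicates 1 and 2, the difference was 0.36 (SE 0.331, adjusted p = 0.730, edgeR). Itgav, at 0.45 (adjusted p = 0.474), and Itgb1, at 0.04 (adjusted p = 0.926), did not pass the test either, with 95% intervals from -0.34 to 1.24 and from -0.37 to 0.45. For Itgb1 the sign turned to -0.33 when libraries were scaled by total counts alone.

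The low weight gainers allow mice on the same diet for the same time to be compared by their weight gain. The beta-5 gene rose and the alpha-v gene fell in LWG relative to 16-week HFD, so that 2 of the 5 genes were called, beside 20.7% of all genes tested (10.8% higher and 9.93% lower). Itgb5 was at 87.2, 63.4 and 118 RPM in the 3 LWG libraries, all above the highest of the 7 HFD libraries at 51.8 RPM, a pattern that 12.9% of genes tested showed in this direction. Its log2 fold change was 0.98 (SE 0.225, adjusted p = 0.00716, edgeR). The call was lost without LWG replicate 23, the highest of the 3, where the log2 fold change was 0.81 (adjusted p = 0.0814, edgeR).

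Itgav was at 310, 226 and 255 RPM in LWG, against a lowest, median and highest level of 213, 448 and 574 RPM in 16-week HFD. The LWG libraries lay between the lowest HFD library and the other 6. Its log2 fold change was -0.93 (SE 0.311, adjusted p = 0.0420, edgeR). The call was lost in 6 of the 10 fits that leave out a library, namely without HFD replicate 12, 14 or 16 or any LWG library (adjusted p up to 0.177, edgeR). With all 34 libraries in the fit, neither gene was called (adjusted p = 0.172 for Itgb5 and 0.313 for Itgav, edgeR).

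Spp1 was -0.62 on the log2 scale in LWG relative to 16-week HFD (SE 0.375, adjusted p = 0.242, edgeR), Cd44 was -0.59 (SE 0.260, adjusted p = 0.109, edgeR) and Itgb1 was -0.05 (SE 0.216, adjusted p = 0.900, edgeR). The sign of Itgb1 turned to 0.11 with scaling by total counts alone. Relative to 16-week CD, the LWG libraries gave log2 fold changes of 0.16 for Spp1, 0.49 for Cd44, -0.44 for Itgav, 0.02 for Itgb1 and 0.17 for Itgb5. Spp1 turned to -0.27 without 16-week CD replicates 1 and 2, and scaling by total counts alone turned Itgb1 to -0.21 and Itgb5 to -0.10. None was called by edgeR, none was at an unadjusted p under 0.05 and none was called by DESeq2, while 0.00861% of all genes were called. The intervals were wide, from -1.19 to 1.51 for Spp1 and from -0.44 to 0.79 for Itgb5. Both LWG comparisons use the same 3 libraries, and the 16-week HFD libraries also serve in the diet comparison.

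Whether the diet difference itself changed between 4 and 16 weeks was tested as an interaction in the 23 libraries of the 4 diet groups. None of the 5 genes passed it in edgeR, where 3.66% of all genes were called. Itgb1 and Itgb5 were at an unadjusted p under 0.05, as were 23.4% of all genes. DESeq2 called Itgb1 and 5.94% of all genes with a count in these libraries. The difference of the diet effects was -0.71 on the log2 scale for Itgb1 (SE 0.334, adjusted p = 0.196, edgeR) and -0.95 for Itgb5 (SE 0.394, adjusted p = 0.144, edgeR). It was 1.23 for Itgav (SE 0.606, adjusted p = 0.219, edgeR), which was called without 16-week CD replicate 9 at 1.71 (adjusted p = 0.0363, edgeR), in a fit that called 13.8% of genes. For Spp1 it was -0.47 (SE 0.716, adjusted p = 0.728, edgeR) and for Cd44 0.55 (SE 0.509, adjusted p = 0.532, edgeR).

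**Figure D5:**
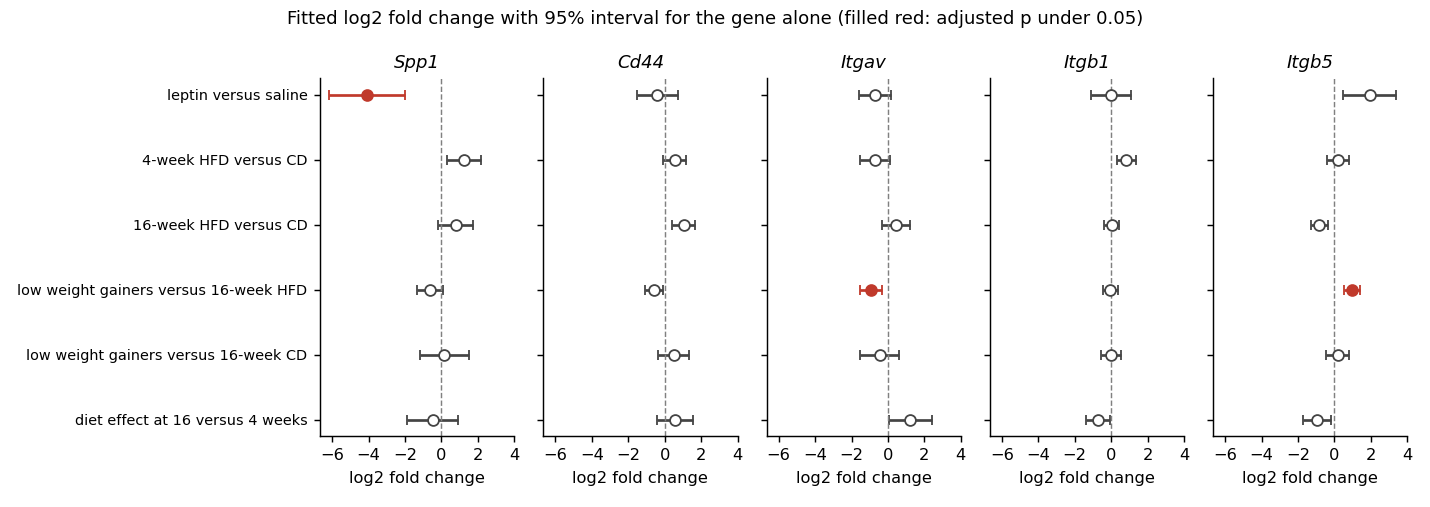
Fitted log2 fold changes (x axes) of Spp1, Cd44, Itgav, Itgb1 and Itgb5 in the 6 comparisons (rows), each with its 95% interval for that gene alone, without adjustment for the number of genes. Filled red points passed an adjusted p of 0.05, namely Spp1 in leptin versus saline at -4.10, and Itgav at -0.93 and Itgb5 at 0.98 in the low weight gainers versus 16-week HFD.

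The other integrin chains that bind osteopontin (Itgb3, Itgb6, Itgb8, Itga4, Itga5, Itga8 and Itga9) were not called in any of the 6 comparisons, in which 3 or 4 of the 7 passed the filter. Itgb3, the beta chain of the classical vitronectin receptor with alpha-v, was at a lowest, median and highest level of 21.2, 23.1 and 47.6 RPM in 16 C and of 3.73, 377 and 471 RPM in 16 L. Its log2 fold change was 2.28 (SE 1.02, adjusted p = 0.156, edgeR). In the diet groups Itgb3 ranged from 193 to 482 RPM in 4-week CD and from 179 to 212 RPM in 4-week HFD, against 38.2 to 235 RPM in 16-week CD, 19.5 to 67.2 RPM in 16-week HFD and 42.5 to 74.7 RPM in LWG.

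Of 8 genes for enzymes that modify osteopontin, 4 passed the filter in leptin versus saline, and Tgm2, which encodes a transglutaminase that cross-links it, rose by 3.00 on the log2 scale (SE 0.714, adjusted p = 0.0378, edgeR). No gene of this list was called elsewhere. Of 14 genes of the integrin adhesion machinery, 13 passed, with a median log2 fold change of 1.23 against 0.27 for all genes. Among these, Pxn, which encodes the adaptor paxillin, rose by 3.10 (SE 0.522, adjusted p = 0.0149, edgeR). In this comparison 8.56% of all genes tested were called. Without 16 C replicate 1, and likewise without 16 C replicate 3, no gene was called higher, so Tgm2 and Pxn lost their calls there. No gene of the other matrix ligands of alpha-v integrins (9 of 10 tested), of the other alpha chains that pair with beta-1 (4 of 7 tested) or of the hyaluronan genes on the side of Cd44 (11 of 12 tested) was called after leptin.

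In 4-week HFD relative to CD, Has3, a hyaluronan synthase, was called lower, at -1.41 on the log2 scale (SE 0.299, adjusted p = 0.0253, edgeR), as 1 of 10 hyaluronan genes tested. The adhesion machinery and the other ligand and integrin lists had no call at 4 weeks. Of 7 granulosa markers tested 1 was called, Fshr, for the receptor of follicle-stimulating hormone, which was higher, at 1.87 (adjusted p = 0.0281, edgeR), and the median of the 7 was 0.04. With HFD replicates 4 and 5 left out, edgeR called 1 gene at 4 weeks and it was higher, so Has3 lost its call. Without CD replicate 8, no gene was called higher, so Fshr lost its call in that fit. In 16-week HFD versus CD and in LWG versus 16-week CD no gene of any of these lists was called.

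In LWG relative to 16-week HFD, calls in these lists went in both directions, beside 10.8% of all genes called higher and 9.93% called lower. Among the other alpha-v ligands, Mfge8, which encodes an RGD protein of the milk fat globule, rose by 1.03 (adjusted p = 0.0137, edgeR) from a range of 30.1 to 113 RPM in HFD to 122 to 183 RPM in LWG. Thbs1, which encodes thrombospondin 1, fell by 0.92 on the log2 scale (adjusted p = 0.0165, edgeR). Of 9 hyaluronan genes tested, 3 were called lower and none higher, namely Vcan, for the hyaluronan-binding proteoglycan versican, at -1.04, Rdx, for the actin linker radixin, at -0.85, and Hmmr, for a hyaluronan receptor, at -0.80. Of 13 adhesion machinery genes, Parva and Zyx were higher, at 0.72 and 1.09, and Lims1 was lower, at -0.70. The alpha chain Itga2 was lower, at -1.11. The lists had medians of -0.23, -0.50, 0.49 and -0.81 in that order of naming, beside -0.03 for all genes.

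Some marker genes of the cells were also called in the comparison of LWG with 16-week HFD, in which 20.7% of all genes tested were called. Of 6 luteinization markers, Cyp11a1 and Scarb1 were higher, at 1.28 each, and Prlr was lower, at -1.59. Of 7 granulosa markers tested, Amhr2 was higher, at 0.94, and Inhba lower, at -1.07, and of 4 cumulus expansion markers Ptgs2 and Btc were lower, at -0.89 and -0.92. The summed macrophage and leukocyte markers were at 264 to 344 RPM in LWG, within the 108 to 652 RPM of 16-week HFD, with none of 12 called. The part of these shifts in the Itgav and Itgb5 results was not tested.

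In the interaction of diet and time, Itga6 was higher, at 1.31 on the log2 scale (adjusted p = 0.0470, edgeR), and Itga2 lower, at -2.05 (adjusted p = 0.0460, edgeR), among 5 of 7 alpha chains tested. The other pathway lists had no call there. Among the markers, Prlr was higher, at 1.81, and Fshr and Scarb1 were lower, at -2.67 and -2.34. With 4-week HFD replicates 4 and 5 left out, edgeR called 0 genes in the interaction, so all of these calls were lost.

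The genes whose levels varied most like Spp1 were sought among 9119 genes with a mean of at least 10 CPM (counts scaled like RPM, to library totals adjusted by TMM). The measure was Spearman's rho over the 34 libraries on log2 CPM after subtraction of group means. The highest values were those of Mrap, for a melanocortin receptor accessory protein (0.834), Cela1, for an elastase (0.781), 1190002H23Rik (0.775), Degs1, for a ceramide synthesis desaturase (0.775), and Akr1c18, for the enzyme that inactivates progesterone (0.772). The lowest were those of Rnf20, for a histone ubiquitin ligase (-0.659), Fgfr2, for a fibroblast growth factor receptor (-0.652), and Dido1 (-0.649). The points share library preparation, depth and cell makeup. Without 16 L replicate 18, Mrap was at 0.786 and in place 90 of 9119, and Cela1 was at 0.658 and in place 387. Likewise 1190002H23Rik was in place 46 (0.814), Degs1 in place 60 (0.805) and Akr1c18 in place 163 (0.743). Of the 3 lowest, Dido1 was in place 9087, Rnf20 in 9028 and Fgfr2 in 8732. With all 34 libraries, the receptor genes were far from the top, with 0.212 for Itgb1, 0.128 for Cd44, 0.0817 for Itgb5 and -0.112 for Itgav. Without subtraction of the group means, Cd44 was at 0.634 and Itgb5 at -0.553.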

How the data were processed

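CCs were taken from superovulated mice, and the authors made Smart-seq2 oligo-dT libraries. Trim Galore 0.4.2, HISAT2 2.0.5 and the build GRCm38 are named in the submitters' processing notes; the counting program and its strand setting are not given in the sources used here. The authors deposited 1 table of raw read counts per gene and library, as whole numbers without normalization, and all of its 34 library columns were mapped to the labels. Among 72 pairs of libraries within groups none was identical, and the lowest chi-square per degree of freedom was 3.38 (16-week CD replicates 1 and 2), above sampling noise. Depth was 1104611 to 13207018 counts per library.

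RPM are counts scaled by the library total, and RPM per kb divides them by the union of exon bases (GENCODE M21, same coordinates). Tests used edgeR 4.0.16 in R 4.3.3 (TMM, filterByExpr, robust quasi-likelihood F-test, two-sided, Benjamini-Hochberg over all genes tested, 0.05) on the groups of each comparison alone, without covariates. Alternatives were DESeq2 1.42.0, RLE factors, no filter on low counts, all 34 libraries in a single fit, totals without Spp1, a replicate block, leaving out each library in turn and, added after seeing the data, scaling by total counts alone and leaving out 2 libraries of 16-week CD or of 4-week HFD together. The fit was tested on simulated data. The genes named are the 5 members, called genes of the lists (at most 4 per list), and the 5 genes most and 3 least like Spp1; Itgb3 and genes named as examples of a marker list were chosen after their values were seen. The members and gene lists were chosen with earlier results of these data known. Whether replicates of a group were also handled together was not given, so p-values measure the spread between these libraries.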

Additional observations from a re-analysis of the deposited data

How the results depend on the processing

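Counts below are of the 5 genes called, by edgeR unless DESeq2 is named. In leptin versus saline 1 was called. DESeq2, the fit with all 34 libraries and scaling by total counts alone called 2 (Spp1 and Itgb5), and the fit without a filter on low counts called 0, with Spp1 at -4.01 (adjusted p = 0.0575). Itgb1 turned to 0.042 without the filter, and with scaling by total counts alone Cd44 turned to 0.30, Itgav to 0.17 and Itgb1 to 0.86. With each library left out in turn, 0 to 3 were called, Spp1 ran from -4.81 to -3.86 and Itgb1 from -0.58 to 0.20. In the 4-week comparison DESeq2 called 2 instead of 0, with Spp1 at 1.26 (adjusted p = 0.0444), and leaving out a library gave 0 to 2 calls and 1.02 to 1.75 for Spp1. With 4-week HFD replicates 4 and 5 left out, Itgb5 turned to -0.068, and edgeR called 1 gene at 4 weeks and 0 in the interaction, where 2180 were at an unadjusted p under 0.05. In the 16-week comparison DESeq2 called 2 and scaling by total counts alone called 1 (Itgb5, with Itgb1 turned to -0.33). Leaving out a library gave 0 to 2 calls and -0.035 to 0.096 for Itgb1. In LWG versus 16-week HFD the fit with all 34 libraries called 0 instead of 2 and scaling by total counts alone called 1, with Itgb1 turned to 0.11. Leaving out a library gave 0 to 2 calls and -0.11 to 0.023 for Itgb1. In LWG versus 16-week CD, Spp1 turned to -0.27 without 16-week CD replicates 1 and 2, and scaling by total counts alone turned Itgb1 to -0.21 and Itgb5 to -0.10. Leaving out a library gave -0.060 to 0.36 for Spp1, -0.63 to 0.060 for Itgav and -0.016 to 0.088 for Itgb1. In the interaction DESeq2 called 1 (Itgb1) and leaving out a library gave 0 to 1. The cause of these changes was not tested.

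A replicate block could be fitted for the interaction alone, where libraries of different groups share numbers. It turned Spp1 to 0.097 and called 0 of the 5 genes and 10 genes in all, against 448 without it. Deviations of same-numbered libraries correlated between -0.28 and 0.20 over 7 pairs, which gave no sign of pairing by number. Each of these pairs joins a 4-week with a 16-week library, so the check cannot show shared handling within a time. The other comparisons had no shared numbers between their groups, so no paired fit was possible. The number of all genes called changed by over 1.5 times with DESeq2 in 16-week HFD versus CD (1130 against 3), in the interaction (1160 against 448), in LWG versus 16-week CD (226 against 1), in the 4-week comparison (1292 against 499) and after leptin (2382 against 1004). The fit with all 34 libraries called 4384 genes after leptin, 69 at 4 weeks, 1258 at 16 weeks, 487 in LWG versus HFD, 7 in LWG versus CD and 157 in the interaction. Scaling by total counts alone called 4035 after leptin, 1646 at 16 weeks and 873 in the interaction, no filter called 504 after leptin and 13 at 16 weeks, and 89 were called in the interaction without 16-week CD replicates 1 and 2. Scaling by total counts alone also shifted the split, to 3652 higher and 383 lower after leptin (476 and 528 with TMM), 91 and 571 at 4 weeks (140 and 359), 55 and 1591 at 16 weeks (1 and 2), 1585 and 598 in LWG versus HFD (1212 and 1118) and 187 and 686 in the interaction (213 and 235). Leaving out a single library moved the number called after leptin from 30 to 4635 and at 16 weeks from 1 to 2222, with the highest number without 16 L replicate 18 and 16-week CD replicate 9. It ranged from 8 to 1700 at 4 weeks, 596 to 2732 in LWG versus HFD and 69 to 1685 in the interaction. The lowest member counts, 32 for Cd44 and 57 for Itgb5 in a library, limit the precision of these genes.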
